A study of Mus musculus with 6 samples.

Results

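The 10 genes described here encode serotonin receptors and were taken by name from the 56923 genes counted in mouse prefrontal cortex, *Htr1a*, *Htr1b*, *Htr1d*, *Htr1f*, *Htr2a*, *Htr2c*, *Htr3a*, *Htr4*, *Htr5a* and *Htr7*. They were taken by their names and not by a threshold on a measured value. RNA was sequenced from 3 samples labelled as *Pla2g4e* knockout (KO), a constitutive knockout by the study's methods, and 3 labelled as wild type (WT). The product of *Pla2g4e* is an enzyme of the cytosolic phospholipase A2 family that needs calcium. The study's methods give the knockout allele as Pla2g4e tm2a, a EUCOMM allele (Hmgu/BayMmucd), in the strain C57BL/6N-A tm1Brd. They describe it as a gene trap, predicted to be null because the transcript is spliced into a reporter, and the dissected tissue as the anterior part of the brain. The labels give neither the age nor the sex of the animals and no treatment. Nothing in the labels says that the replicates came from separate animals. The sex-linked genes given below show that replicate 1 of each group came from another animal than replicates 2 and 3, and for those 2 the p-values may measure technical spread only.

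Serotonin reaches the cortex in axons of the raphe nuclei of the brainstem, and cortical cells respond through receptors that differ in what they signal to. Receptors of the 1 and 5 families couple to the inhibitory Gi/o proteins, which lower cyclic AMP and open potassium channels. *Htr2a* and *Htr2c* couple to the Gq proteins, which activate phospholipase C and release calcium from internal stores. *Htr4* and *Htr7* couple to Gs, which raises cyclic AMP. *Htr3a* encodes a subunit of an ion channel that serotonin opens directly, and it marks a class of cortical interneurons. The comparison of KO with WT is read here for the transcripts of these receptors.

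The 10 genes differ in structure. *Htr1a*, *Htr1b*, *Htr1d* and *Htr1f* have their coding sequence in 1 exon, whereas *Htr5a* has 2 coding exons, *Htr2a* 3, *Htr2c* and *Htr7* 4, *Htr4* 6 and *Htr3a* 9. All exons together are 1.42 times as long as the coding sequence in *Htr3a* and 6.77 times as long in *Htr2c*, whose exons sum to 9328 bases. A level per exon length therefore divides *Htr2c* by the largest length of the set and *Htr3a*, at 2083 bases, by the smallest.

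Promoter sequences were taken for 8 of the 10 genes, with *Htr4* not looked up and no entry found for *Htr3a*. They are shown for 4 on which the results turn. *Htr2a* had the highest level, and *Htr2c* varied most beyond counting error. The others are *Htr1f* and *Htr1b*, whose mean levels in KO lay on opposite sides of WT. Each sequence is the 250 bases before the transcription start in RefSeq, on build GRCm38.p6, whereas the fragments were counted on GRCm39. Both strands were searched for 3 motifs, and capitals mark each match. Of the marked motifs, the letters were TATAAA for the TATA box. For the CCAAT box they were the 5 letters of its name. For the GC box they were GGGCGG. *Htr2a* lies at chr14:74640624-74640873 on the plus strand, *Htr2c* at chrX:146962263-146962512 on the plus strand, *Htr1f* at chr16:65105785-65106034 on the minus strand and *Htr1b* at chr9:81633833-81634082 on the minus strand.
Htr2a: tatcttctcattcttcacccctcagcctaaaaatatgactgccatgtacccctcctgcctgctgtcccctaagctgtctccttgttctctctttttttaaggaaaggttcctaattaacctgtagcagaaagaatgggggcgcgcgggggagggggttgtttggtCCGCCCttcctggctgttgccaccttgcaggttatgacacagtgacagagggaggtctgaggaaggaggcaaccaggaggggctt
Htr2c: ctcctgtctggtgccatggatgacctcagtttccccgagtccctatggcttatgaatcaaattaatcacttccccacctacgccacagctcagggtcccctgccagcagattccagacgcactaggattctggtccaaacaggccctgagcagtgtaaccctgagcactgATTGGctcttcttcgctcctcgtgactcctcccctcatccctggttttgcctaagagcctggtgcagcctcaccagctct
Htr1f: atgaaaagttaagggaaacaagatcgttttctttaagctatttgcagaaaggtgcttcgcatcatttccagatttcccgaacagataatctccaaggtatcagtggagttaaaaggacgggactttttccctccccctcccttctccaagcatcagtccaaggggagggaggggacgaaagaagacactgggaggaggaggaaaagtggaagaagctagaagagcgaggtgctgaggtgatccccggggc
Htr1b: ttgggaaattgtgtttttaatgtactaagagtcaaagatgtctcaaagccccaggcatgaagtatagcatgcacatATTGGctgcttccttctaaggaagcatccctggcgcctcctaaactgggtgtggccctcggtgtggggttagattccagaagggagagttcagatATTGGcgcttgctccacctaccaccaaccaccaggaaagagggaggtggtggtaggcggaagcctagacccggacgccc
The *Htr2a* window held 1 GC box, the *Htr2c* window 1 CCAAT box and the *Htr1b* window 2 CCAAT boxes, and none of the 3 motifs was in the *Htr1f* window. Of 32851 mouse promoter windows of the same length, 32.7% held a GC box, 33.9% a CCAAT box and 12.4% a TATA box, so each of these matches is common. The GC content of the windows was 52.8% for *Htr2a*, 55.6% for *Htr2c*, 49.2% for *Htr1f* and 52.4% for *Htr1b*, against a median of 52.4% over all windows. Of the receptors whose promoter is not shown, *Htr7* had the highest GC content, 82%, with 41 CpG dinucleotides where the median window had 6. *Htr1d* had 2 starts, the first with 51.6% GC and 6 CpG and the second with 72.4% GC and 20 CpG. These matches describe the letters of the windows only.

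The libraries held 11792463 to 14594230 counted fragments, where a fragment is a read pair assigned to a gene. *Pla2g4e* itself was at 5.94, 8.12 and 7.96 CPM in KO against 7.83, 11.3 and 13.2 CPM in WT (CPM, the gene's fragments per 1000000 of the TMM-scaled library total). The groups overlapped, because WT replicate 1 lay within the KO range, and directions given below follow the labels. For *Pla2g4e* limma-voom gave a log2 fold change of -0.55 (SE 0.21, unadjusted p 0.0205, adjusted p 0.635). This fold change stayed below 0 under all 16 alternative fits, 13 of which gave unadjusted p under 0.05. In limma-voom it was -0.39 without KO replicate 1 (unadjusted p 0.0923) and -0.39 without WT replicate 3 (unadjusted p 0.0943). Without WT replicate 2 it was -0.50 (unadjusted p 0.0557). Counts were summed over all exons of the gene, so they do not separate the exons before and after the trap. Cortical excitatory neuron markers were abundant in all 6 libraries, with *Slc17a7*, the vesicular glutamate transporter of these neurons, at 1160 to 1627 CPM. Summed over 7 such markers, the level was 5340 to 6366 CPM in KO against 5855 to 6282 CPM in WT. The fitted log2 fold change was below 0 for all 7 markers, with a median of -0.20. In limma-voom 3 of the 7 were lower in KO with unadjusted p under 0.05, as were 3.44% of all genes tested. *Camk2a*, the most abundant of the 7, had a mean of 3882 CPM in KO and 3878 CPM in WT. Markers of neighbouring regions were also present. Olfactory bulb markers summed to 691, 370 and 323 CPM in KO against 401, 264 and 329 CPM in WT, so that KO replicate 1 stood apart, and the fitted log2 fold change was above 0 for all 9, 1 with unadjusted p under 0.05. Striatal neuron markers summed to 410 to 530 CPM in KO against 313 to 505 CPM in WT, and it was above 0 for all 12, 1 with unadjusted p under 0.05. *Xist* was expressed in KO replicate 1 and WT replicate 1 and Y-linked genes in the other 4 libraries. In bulk tissue, fewer cells of a type and less RNA per cell cannot be told apart.

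All 10 receptor transcripts were detected in every library, with the Gq-coupled *Htr2a* at the highest level. Levels are given as TMM-scaled CPM per kilobase of exon, a scale that divides each gene by its exon length. *Htr2a* was at 9.52 ± 0.716 (SD, n = 6 libraries). It was followed by *Htr5a* at 4.18 ± 0.402, *Htr2c* at 3.68 ± 1.07, *Htr1a* at 3.28 ± 0.304, *Htr1b* at 3.06 ± 0.522 and *Htr3a* at 2.98 ± 0.179. Lower still were *Htr1f* at 1.66 ± 0.435, *Htr7* at 1.62 ± 0.183, *Htr1d* at 0.343 ± 0.215 and *Htr4* at 0.194 ± 0.0858. *Htr2a* held the first place in each of the 6 libraries. The last place depended on the group, since *Htr4* was below *Htr1d* in the KO means, at 0.156 ± 0.112 against 0.471 ± 0.163, whereas in the WT means *Htr1d* was at 0.214 ± 0.198 and *Htr4* at 0.233 ± 0.0381 (SD, n = 3). On this scale *Htr1d* was the lowest of the 10 in WT replicates 1 and 2, and *Htr4* in the other 4 libraries. Per kilobase of exon *Htr1f* ranked above *Htr7* in the KO means and below it in the WT means. Without division by length *Htr1f* ranked below *Htr7* in the means of both groups.

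**Figure D1:**
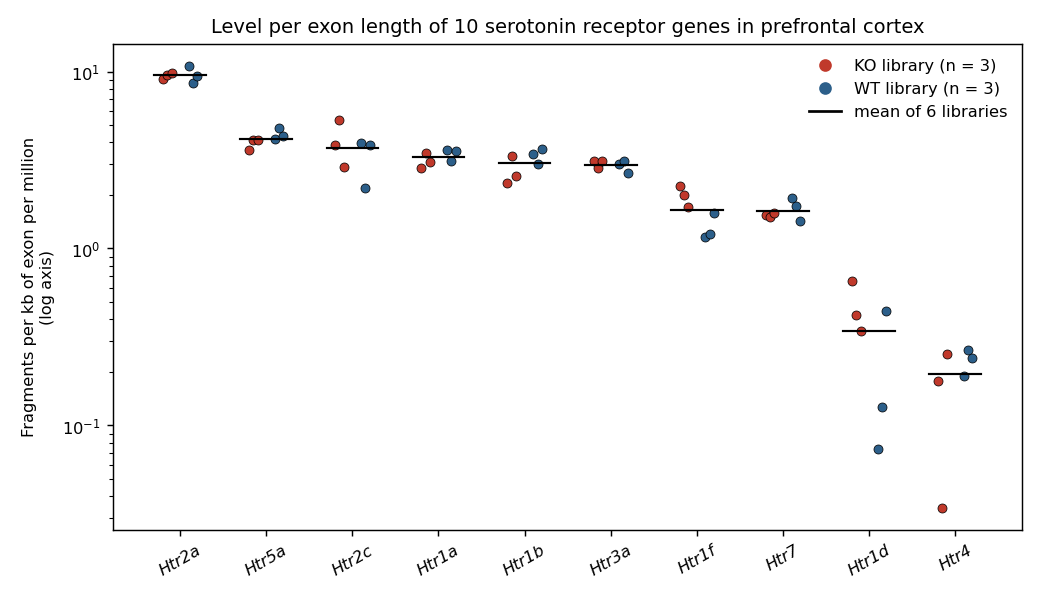
Level of each receptor gene in fragments per kilobase of exon per 1000000 (vertical log axis), with 1 point for each KO (red) or WT (blue) library and a line at the mean of 6. *Htr2a* lies above all other receptors in every library, 5 genes from *Htr5a* to *Htr3a* lie between 2.98 and 4.18 on average, and *Htr1d* and *Htr4* spread the most.

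The steps in this order were uneven. Each gene was compared with the next in the order by an exact two-sided sign-flip permutation test on log2 differences over the 6 libraries, 9 pairs in all, for which the smallest p-value that can be reached is 0.03125. The order, and so which gene of a pair is the higher, was set by the means of the same 6 libraries, so these p-values describe the spread and are no independent test of the direction. *Htr2a* was 2.28 times the level of *Htr5a*, *Htr3a* was 1.85 times that of *Htr1f*, and *Htr7* was 5.92 times that of *Htr1d*. In each of these 3 pairs the first gene was higher in 6 of 6 libraries, with an exact permutation p of 0.03125 and 0.09375 after adjustment over the 9 pairs. None of the 9 pairs passed an adjusted threshold of 0.05, with 3 pairs at unadjusted p under 0.05. With this smallest p-value no pair can pass the adjusted threshold unless at least 6 of the 9 pairs reach it, so the count of 0 says little about these pairs. On this scale the genes from *Htr5a* to *Htr3a* were not separated from their neighbours, with differences of 1.01- to 1.17-fold and unadjusted p values from 0.09375 to 0.96875 in the same exact test. *Htr1f* and *Htr7* differed by a mean of -0.01 on the log2 scale (SD 0.52), and *Htr1d* exceeded *Htr4* in 4 of 6 libraries.

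Which steps were large depended on the length used. Without division by length *Htr2c* was 2.26 times *Htr1a* and *Htr1b* 2.30 times *Htr3a*, and per kilobase of coding sequence these ratios were 2.08 and 2.91, each with the first gene higher in 6 of 6 libraries. The step from *Htr3a* to *Htr1f* was 1.49-fold without division by length and 1.12-fold per kilobase of coding sequence, there in 4 of 6 libraries with an exact permutation p of 0.40625. The steps from *Htr2a* to *Htr5a* and from *Htr7* to *Htr1d* held in 6 of 6 libraries on all 3 scales. The gene next to *Htr2a* was *Htr2c* without division by length and per kilobase of coding sequence. There *Htr2a* was 1.61 and 1.57 times the level of *Htr2c*. It was higher in 6 of 6 libraries on both scales, with smallest log2 differences of 0.103 and 0.0658.

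The place of *Htr2c* also depended on the length. Per kilobase of exon it ranked below *Htr5a*, and without division by length, or per kilobase of coding sequence, it ranked above *Htr5a*. By mean level per kilobase of exon *Htr2c* ranked next to *Htr2a* in KO and below *Htr5a*, *Htr1a* and *Htr1b* in WT, whereas on the other 2 scales it ranked next to *Htr2a* in both groups. Single libraries did not follow the groups, since per kilobase of exon it ranked below *Htr1a* in KO replicate 3 and WT replicate 2 and above *Htr1a* in the other 4 libraries.

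As shares of the summed level of the 10 genes, *Htr2a* took 31.2 ± 1.66% (SD, n = 6), with a range of 29.2% to 33.3%. *Htr5a* took 13.8 ± 1.78%, *Htr2c* 11.97 ± 2.93%, *Htr1a* 10.7 ± 0.636%, *Htr1b* 9.99 ± 1.42% and *Htr3a* 9.80 ± 1.04%. The remaining 4 genes took between 0.648% and 5.44% each on average. Grouped by the protein they signal to, the 2 Gq-coupled receptors held 43.2 ± 2.698% and the 5 Gi/o-coupled receptors 41.0 ± 2.10%. The 2 Gs-coupled receptors held 5.98 ± 0.857%. These shares are of the 10 genes only, which leave out *Htr6*, a further Gs-coupled receptor. Without division by length the Gq-coupled share was 55.6 ± 3.62% and the Gi/o-coupled share 36.3 ± 2.88%, so the balance between them depends on the scale. Among single genes, *Htr2c* took 21.6% without division by length and 20.3% per kilobase of coding sequence, *Htr3a* 3.97% and 3.50%, *Htr1f* 2.72% and 3.21%, and *Htr7* 3.53% and 3.23%.

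**Figure D2:**
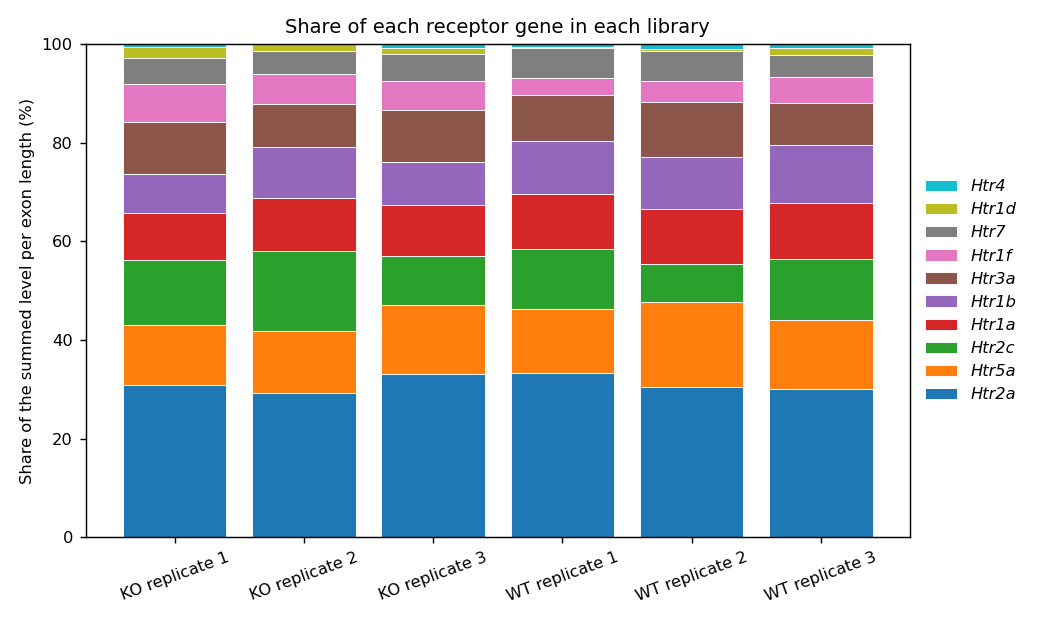
Share of each receptor gene in the summed level per exon length (vertical axis, percent), stacked for each of the 6 libraries. The *Htr2a* block is 29.2% to 33.3% in every library, whereas the *Htr2c* block runs from 7.77% in WT replicate 2 to 16.4% in KO replicate 2.

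Among the 10 receptors, 3 showed unadjusted p under 0.05 between KO and WT in limma-voom, *Htr1d* and *Htr1f* with higher and *Htr1b* with lower mean levels in KO. None had an adjusted p under 0.05, the lowest being 0.635. Over all 19084 genes tested, 7.82% had unadjusted p under 0.05, 4.38% higher and 3.44% lower in KO, and 0 passed after adjustment (0 in edgeR and 1 in DESeq2). The number of receptors is small and their count moved with the fit. It was 1 of 10 in edgeR and in DESeq2 (*Htr1f* in both), with 0 after adjustment in each. It was 0 without KO replicate 1, 1 without WT replicate 1 and 0 without both libraries that expressed *Xist*. The median log2 fold change of the 10 receptors was -0.07, with 4 above and 6 below 0, and the median over all genes tested was 0.01.

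**Figure D3:**
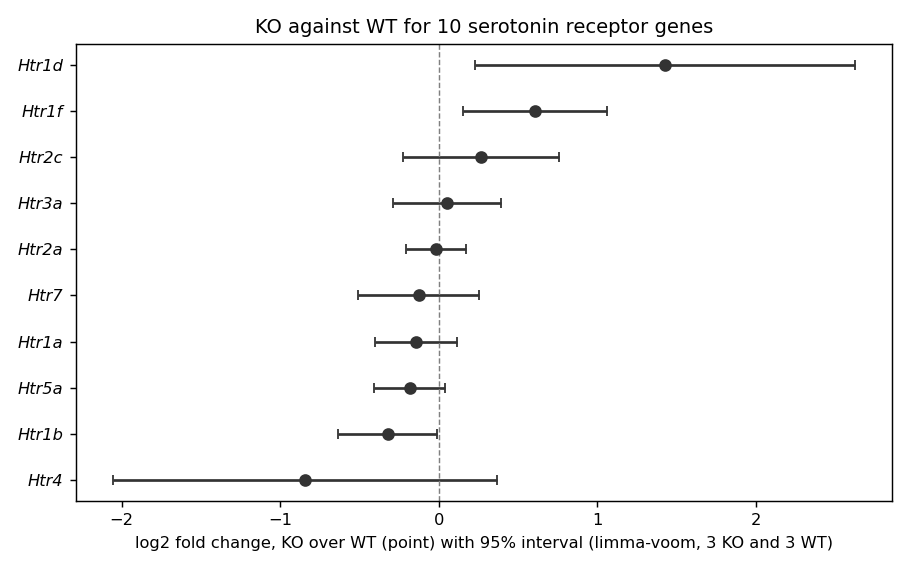
Log2 fold change of KO over WT for each receptor gene (horizontal axis), as the limma-voom estimate with its 95% interval from 3 KO and 3 WT libraries. The intervals of *Htr1d*, *Htr1f* and *Htr1b* do not include 0, and the interval of *Htr2a* is the narrowest, from -0.21 to 0.18.

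Of the Gq-coupled receptors, *Htr2a* was steady across libraries and *Htr2c* was not. *Htr2a* (ENSMUSG00000034997.6, chromosome 14, 74878280 to 74946934, plus strand) is the main excitatory serotonin receptor of cortical pyramidal neurons and the target of the classical psychedelics. It was at 50.9, 53.4 and 54.7 CPM in KO against 60.2, 48.3 and 52.6 CPM in WT, from 590 to 768 fragments in a library. The KO values lay inside the WT range. In limma-voom the log2 fold change was -0.02 with SE 0.09, a 95% interval of -0.21 to 0.18 and an unadjusted p of 0.867 (adjusted p 0.973). The sign of this difference turned under 5 of the 16 alternative fits, listed in the closing section.

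*Htr2c* (ENSMUSG00000041380.14, chromosome X, 145745509 to 145980273, plus strand), whose transcript is edited at several bases in the brain, varied far more. It was at 36.0, 49.7 and 27.1 CPM in KO against 37.0, 20.4 and 36.0 CPM in WT. The highest value was in KO replicate 2 and the lowest in WT replicate 2, and the groups overlapped. The coefficient of variation over the 6 libraries was 28.9%, where the counting error of its fragments alone would give 4.75%. The log2 fold change was 0.27 (SE 0.23, 95% interval -0.23 to 0.76) with an unadjusted p of 0.263 in limma-voom. It was 0.47 with an unadjusted p of 0.0457 without KO replicate 3, and -0.01 without WT replicate 2. The ratio of *Htr2c* to *Htr2a* per exon length was 0.425, 0.560 and 0.297 in KO against 0.369, 0.255 and 0.411 in WT. The groups overlapped in this ratio, with the highest value in KO replicate 2 and the lowest in WT replicate 2.

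The sums of 3 marker lists are set beside *Htr2c* as a description. The striatal markers summed to 410, 530 and 414 CPM in KO against 313, 318 and 505 CPM in WT. Their sum was highest in KO replicate 2, where *Htr2c* was highest, and low in WT replicate 2, where *Htr2c* was lowest, but it was lowest in WT replicate 1, where *Htr2c* was at 37.0 CPM. Markers of cortical layer 6b and the claustrum summed to 84.9, 137 and 83.4 CPM in KO against 67.5, 81.4 and 112 CPM in WT, with the maximum in the library where *Htr2c* was highest. The fitted log2 fold change was above 0 for 4 of these 6 markers and below 0 for 2, none with unadjusted p under 0.05. The choroid plexus, which expresses *Htr2c* strongly, left markers that summed to 7.87 to 17.4 CPM in KO against 9.88 to 37.1 CPM in WT. Its defining transcript *Ttr* was at 26.8 CPM in WT replicate 2, where *Htr2c* was lowest, and at 0.251 to 2.12 CPM in the other 5 libraries. The part of these lists in the spread of *Htr2c* was not tested.

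Among the Gi/o-coupled receptors, *Htr1f* gave the lowest p-value of the 10 genes. *Htr1f* (ENSMUSG00000050783.6, chromosome 16, 64745092 to 64926217, minus strand) encodes a receptor that is the target of the migraine drug lasmiditan. It was at 5.81, 5.19 and 4.45 CPM in KO against 2.98, 3.11 and 4.08 CPM in WT, from 86, 62 and 57 fragments against 38, 38 and 52. Every KO value was above every WT value, with KO replicate 3 and WT replicate 3 close to each other. Its log2 fold change was 0.61 (SE 0.21, 95% interval 0.16 to 1.06), with an unadjusted p of 0.0126 (adjusted p 0.635) in limma-voom. It kept its direction under all 16 alternatives, from 0.42 to 0.75, with unadjusted p values from 0.00911 to 0.129 and adjusted p values from 0.311 to 0.999. Without KO replicate 1 it was 0.51 with an unadjusted p of 0.0515, and among the 4 libraries with Y-linked expression it was 0.42 with an unadjusted p of 0.129.

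*Htr1d* (ENSMUSG00000070687.12, chromosome 4, 136150835 to 136171709, plus strand), a receptor at axon terminals and a target of the triptan drugs, lay in the same direction from far fewer fragments. It had 31, 16 and 14 fragments in KO against 3, 5 and 18 in WT, or 2.09, 1.34 and 1.09 CPM against 0.235, 0.409 and 1.41 CPM. WT replicate 3 lay above KO replicates 2 and 3, so the groups overlapped. On the log2 scale the fold change was 1.43 (SE 0.55, 95% interval 0.23 to 2.63), with an unadjusted p of 0.0236 (adjusted p 0.635) in limma-voom. It ranged from 0.61 (unadjusted p of 0.297) without both *Xist*-expressing libraries to 2.12 without WT replicate 3. The unadjusted p was 0.0713 without KO replicate 1, 0.134 without WT replicate 1 and 0.0760 without WT replicate 2.

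*Htr1b* (ENSMUSG00000049511.6, chromosome 9, 81510344 to 81515881, minus strand), which limits serotonin release at axon terminals, lay in the opposite direction. It was at 11.01, 15.8 and 12.1 CPM in KO against 16.1, 14.2 and 17.3 CPM in WT. KO replicate 2 was above WT replicate 2, so the groups overlapped. The log2 fold change was -0.32 (SE 0.14, 95% interval -0.64 to -0.01), with an unadjusted p of 0.0448 (adjusted p 0.635) in limma-voom. It stayed between -0.47 and -0.19 under the 16 alternatives, of which 6 gave unadjusted p under 0.05. The unadjusted p was 0.202 when KO replicate 1 was left out, 0.115 for KO replicate 3, 0.0885 for WT replicate 1 and 0.139 for WT replicate 3, and 0.254 for both *Xist*-expressing libraries.

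Per exon length, the ratio of *Htr1f* to *Htr1b* was 0.966, 0.601 and 0.674 in KO against 0.338, 0.400 and 0.431 in WT. The groups did not overlap in this ratio, which was formed after the values of both genes were seen and was not tested. The olfactory bulb and striatal marker sums given above went with these genes in some libraries and not in others. KO replicate 1 had the highest olfactory bulb sum, the highest *Htr1f* and *Htr1d* and the lowest *Htr1b*. WT replicate 3 had the highest striatal sum of the WT libraries, 505 CPM, and the highest WT values of all 3 receptors. Against this, WT replicate 1 had the highest olfactory bulb sum after KO replicate 1, 401 CPM, and the lowest *Htr1f* and *Htr1d* of the 6 libraries, and KO replicate 1 had the lowest striatal sum of the KO libraries. The part of these tissues in the receptor differences was not tested.

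**Figure D4:**
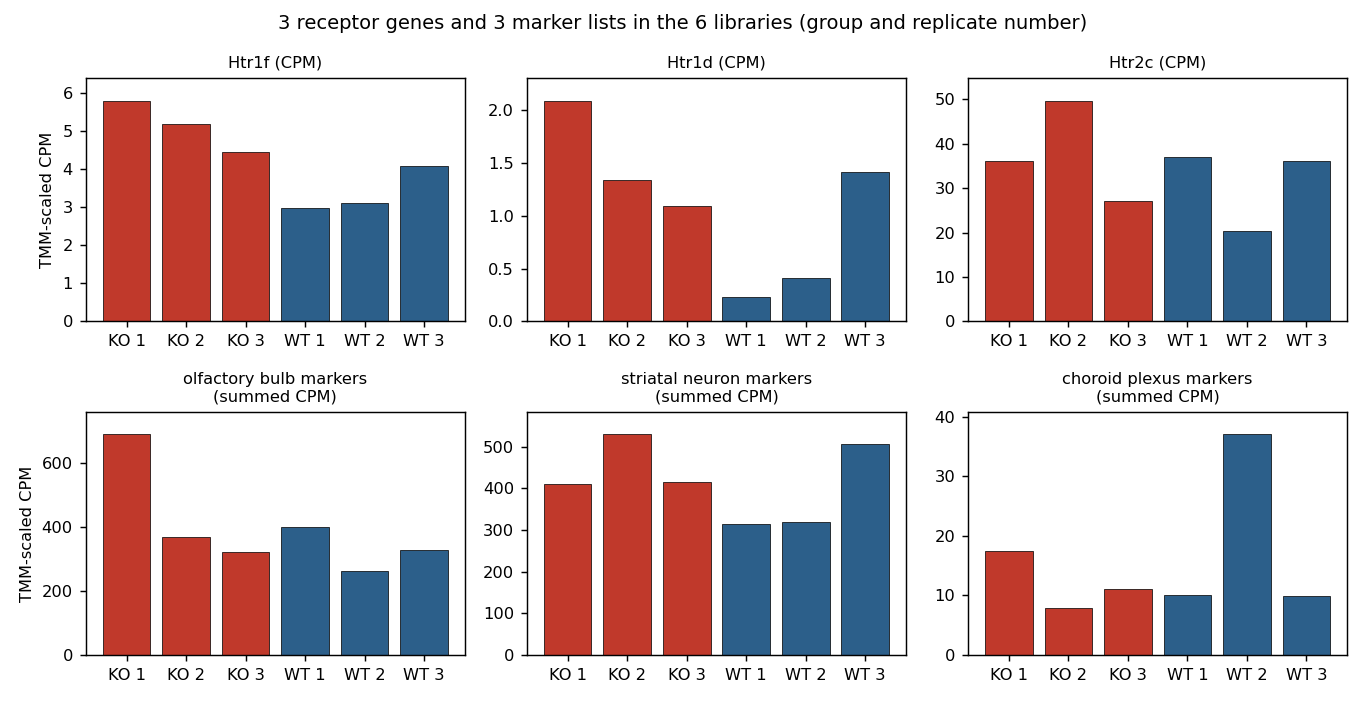
TMM-scaled CPM (vertical axes, each from 0) of *Htr1f*, *Htr1d* and *Htr2c* in the upper row, and summed CPM of 3 marker lists in the lower row, for each KO (red) and WT (blue) library by replicate number. KO replicate 1 is highest for the olfactory bulb list, *Htr1f* and *Htr1d*, and WT replicate 2 is highest for the choroid plexus list, where *Htr2c* is lowest.

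The remaining Gi/o-coupled receptors differed less. *Htr5a* (ENSMUSG00000039106.7, chromosome 5, 28047147 to 28060086, plus strand), a receptor found mainly in the brain, was at 19.3, 22.0 and 22.0 CPM in KO against 22.5, 25.9 and 23.2 CPM in WT. Every KO value lay below every WT value, KO replicates 2 and 3 just below WT replicate 1. Its log2 fold change was -0.18 (SE 0.10, 95% interval -0.40 to 0.04), with an unadjusted p of 0.0961 in limma-voom. *Htr1f* and *Htr5a* were the 2 of 10 receptors whose groups did not overlap, where 13% of all genes tested did not. *Htr1a* (ENSMUSG00000021721.6, chromosome 13, 105580147 to 105584630, plus strand) hyperpolarises pyramidal neurons and, on raphe neurons, restrains their firing. It was at 12.7, 15.6 and 13.8 CPM in KO against 16.1, 14.1 and 15.8 CPM in WT. The groups overlapped, with a log2 fold change of -0.14 (SE 0.12, 95% interval -0.40 to 0.12) and an unadjusted p of 0.257 in limma-voom.

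The 2 Gs-coupled receptors were both low. *Htr7* (ENSMUSG00000024798.16, chromosome 19, 35936134 to 36034907, minus strand) was at 5.27, 5.11 and 5.39 CPM in KO against 6.58, 5.89 and 4.86 CPM in WT. The KO libraries lay within 1.06-fold of each other, inside the WT range, with a log2 fold change of -0.12 (95% interval -0.51 to 0.26) and an unadjusted limma-voom p-value of 0.490. *Htr4* (ENSMUSG00000026322.10, chromosome 18, 62457275 to 62629648, plus strand) had 13, 2 and 16 fragments in KO against 12, 16 and 15 in WT. Its low KO mean came from KO replicate 2 alone. On the log2 scale the fold change was -0.84 (SE 0.56, 95% interval -2.05 to 0.37) with an unadjusted p of 0.154 in limma-voom, and -0.13 without that library.

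The ion channel subunit varied no more than its counting error. *Htr3a* (ENSMUSG00000032269.9, chromosome 9, 48810513 to 48822399, minus strand) was at 6.48, 5.94 and 6.48 CPM in KO against 6.27, 6.46 and 5.57 CPM in WT. Its coefficient of variation was 6.02%, below the 11.2% that counting error alone would give from 71 to 96 fragments. The log2 fold change was 0.05 (SE 0.16, 95% interval -0.29 to 0.39), with an unadjusted p of 0.742 in limma-voom. The 13 markers of the *Htr3a* class and other interneurons summed to 905 to 1466 CPM in KO against 856 to 1154 CPM in WT, with the maximum in KO replicate 1. The fitted log2 fold change was above 0 for 9 of the 13 and below 0 for 4, and 1 was higher and 2 lower with unadjusted p under 0.05 in limma-voom. These were *Adarb2* with a log2 fold change of 0.46, *Pvalb* with -0.23 and *Cnr1* with -0.16. In KO replicate 1 *Calb2*, one of these markers that is also abundant in the olfactory bulb, was at 103 CPM against 10.2 to 29.7 CPM in the others, whereas *Htr3a* differed by 1.16-fold between its highest and lowest library.

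**Figure D5:**
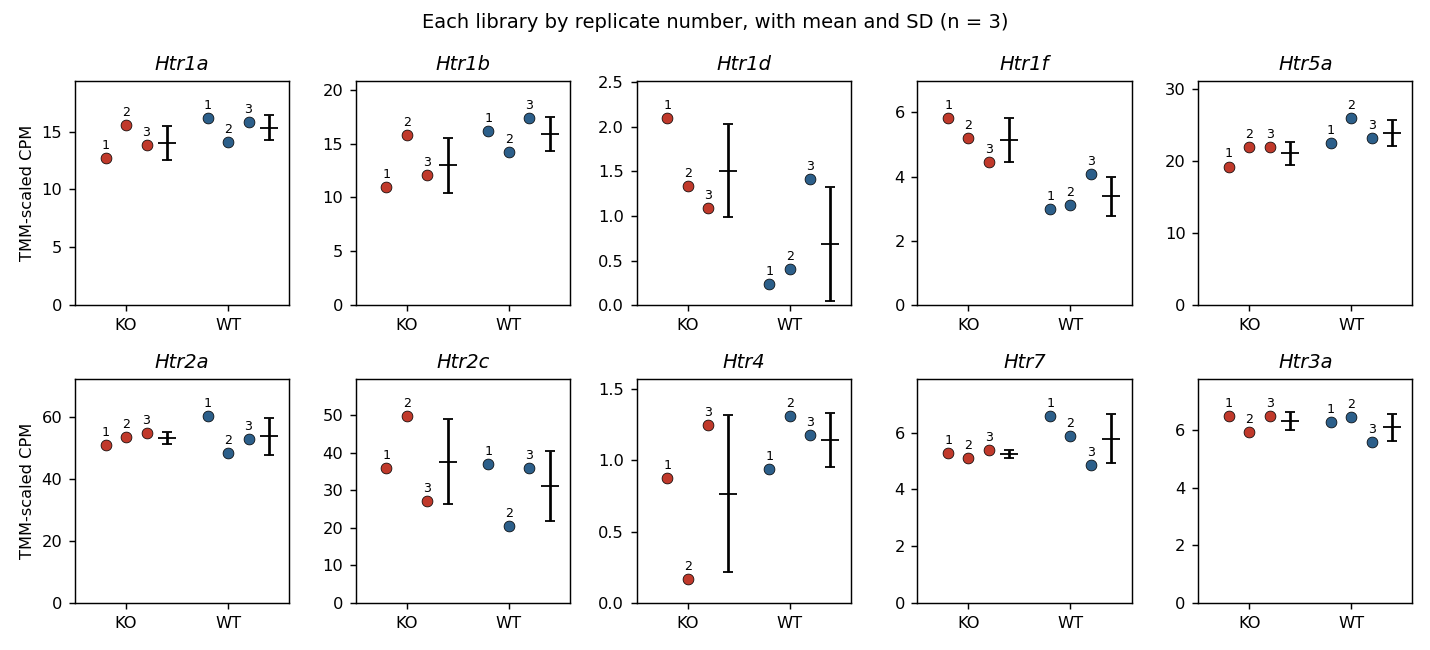
TMM-scaled CPM (vertical axes, each from 0) of the 10 receptor genes in each library, numbered by replicate, with the mean and SD of the 3 KO (red) and 3 WT (blue) libraries to the right of each group. The groups do not overlap for *Htr1f* and *Htr5a*, and *Htr4* in KO replicate 2 lies apart at 0.167 CPM.

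The spread over all 6 libraries also differed between the receptors when set against counting error. For *Htr7* the coefficient of variation was 11.3% with 11.9% from counting, and for *Htr1a* it was 9.29% with 7.28%. For *Htr2a* and *Htr5a* it was 7.52% with 3.82% and 9.60% with 5.89%. *Htr1b*, *Htr1f* and *Htr1d* varied by 17.1%, 26.3% and 62.7%, with 7.36%, 13.4% and 26.3% from counting. *Htr4* varied by 44.2% with 28.5% from counting. *Htr3a* and *Htr7* were thus no more variable than their depth allows, and *Htr2c* had the largest spread relative to counting error.

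Of the 4 other serotonin receptor genes looked up, 2 had enough fragments to be tested. *Htr6*, a Gs-coupled receptor, was at 4.19 to 5.44 CPM, with a limma-voom log2 fold change of -0.03 and an unadjusted p of 0.875. Per kilobase of exon *Htr6* was at 2.10 ± 0.185, between *Htr3a* and *Htr1f*. *Htr5b* was at 0.419 to 1.49 CPM, *Htr2b* at 0.157 CPM or less, and *Htr3b* had no fragment in any library. Of 5 markers of raphe serotonin neurons, which summed to 3.36 to 6.30 CPM, 3 were near 0. *Slc6a4*, the serotonin transporter, was at 0.203 CPM or less, *Fev* at 0.0780 CPM or less, and *Tph2*, the neuronal enzyme of serotonin synthesis, at 0.573 CPM or less. Most of the sum came from the other 2, *Slc17a8*, a vesicular glutamate transporter also found in other neurons, at a mean of 2.86 CPM in KO and 3.67 CPM in WT, and *Slc18a2*, the vesicular monoamine transporter, at 1.02 and 0.537 CPM.

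Genes around the receptors were read from 6 lists of 80 genes, 75 of which were tested. The lists hold the G proteins and effectors of the Gs, Gq and Gi/o pathways, receptor partners and regulators, the genes of serotonin synthesis, transport and breakdown, and the 4 other receptors. An unadjusted p under 0.05 was found for 6 of the 75, 2 higher and 4 lower in KO, next to the 7.82% of all genes. All 6 lay in the G protein lists, 4 of 17 for Gs, 1 of 13 for Gq and 1 of 13 for Gi/o, and none in the other 3 lists. The difference between the lists was not tested. None passed after adjustment in limma-voom (adjusted p 0.635 for each of the 6). The count was 5 in edgeR and 8 in DESeq2. Leaving out KO replicate 1 gave 1, WT replicate 2 gave 1, KO replicate 3 gave 10 and WT replicate 3 gave 12. Of the 75 tested, 46 had a fitted log2 fold change below 0, as had 9185 of all 19084 genes tested.

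For the Gs pathway, 17 of 17 genes were tested, with 1 higher and 3 lower at unadjusted p under 0.05. The lower ones were subunits of protein kinase A, the kinase that cyclic AMP activates. *Prkar1b*, a regulatory subunit, was at 687, 784 and 792 CPM in KO against 971, 911 and 780 CPM in WT, with a log2 fold change of -0.23 (SE 0.08, unadjusted limma-voom p-value 0.0178). *Prkaca*, a catalytic subunit, and *Prkar1a*, another regulatory subunit, had log2 fold changes of -0.17 and -0.15 with unadjusted p values of 0.0403 and 0.0442. In each of these 3 genes WT replicate 3 lay within the KO range, and in each the unadjusted p was over 0.05 without KO replicate 1, WT replicate 1 or WT replicate 2. Without both *Xist*-expressing libraries *Prkar1b*, *Prkaca* and *Prkar1a* were at -0.0978, -0.10 and -0.0862, with unadjusted p values from 0.225 to 0.261. *Rapgef3*, which encodes a cyclic AMP sensor outside the kinase pathway, was at 64.4, 39.0 and 46.0 CPM in KO against 42.1, 36.2 and 36.6 CPM in WT, with a log2 fold change of 0.36 and an unadjusted limma-voom p-value of 0.0337. Without KO replicate 1, its highest library, *Rapgef3* was at 0.15 with an unadjusted p of 0.174, and it also lost that threshold without WT replicate 2 or 3. The list also holds *Gnas*, the Gs subunit itself, at 953 to 1039 CPM in KO against 1006 to 1143 CPM in WT, and *Adcy1*, an adenylyl cyclase, at 750 to 1065 CPM in KO against 881 to 1122 CPM in WT.

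For the Gq pathway, 13 of 14 genes were tested and 1 had unadjusted p under 0.05. *Prkca*, a protein kinase C, was at 317, 279 and 261 CPM in KO against 254, 230 and 250 CPM in WT, with no overlap, a log2 fold change of 0.22 (SE 0.08) and an unadjusted limma-voom p-value of 0.0150. For *Prkca* the log2 fold change was 0.14 with an unadjusted p of 0.0715 without KO replicate 1, and 0.18 with 0.0678 without WT replicate 2. *Prkcb* was at 428 to 525 CPM in KO against 496 to 538 CPM in WT, and *Itpr1*, the calcium release channel, at 724 to 959 CPM in KO against 820 to 1010 CPM in WT. For the Gi/o pathway, all 13 genes were tested and 1 had unadjusted p under 0.05. *Rgs4*, which shortens signalling by Gi/o and Gq proteins, was at 299, 320 and 332 CPM in KO against 399, 327 and 360 CPM in WT, with a log2 fold change of -0.19 (SE 0.08) and an unadjusted limma-voom p-value of 0.0310. For *Rgs4* it was -0.12 with an unadjusted p of 0.150 without WT replicate 1 and -0.0739 with 0.337 without both *Xist*-expressing libraries, and the threshold was also lost without KO replicate 1, KO replicate 2 or WT replicate 3. *Gnao1*, the main Go subunit of neurons, was at 774 to 827 CPM in KO against 768 to 839 CPM in WT.

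Of the genes for serotonin synthesis, transport and breakdown, 13 of 15 were tested, with fitted log2 fold changes above 0 for 7 and below 0 for 6, and none had unadjusted p under 0.05 in limma-voom. *Qdpr*, which regenerates the cofactor of serotonin synthesis, was at 70.2 to 84.5 CPM in KO against 78.4 to 91.7 CPM in WT, and *Aldh2*, an aldehyde dehydrogenase, at 67.5 to 74.2 CPM and 65.6 to 72.7 CPM. *Maoa*, which breaks serotonin down, was at 31.2 to 37.2 CPM over the 6 libraries. Of the 17 partners and regulators of the receptors, 8 had fitted changes above 0 and 9 below, also with none at unadjusted p under 0.05. Among them *Dlg4*, a scaffold that binds the *Htr2a* and *Htr2c* receptors, was at 826 to 885 CPM in KO against 860 to 927 CPM in WT, and *Arrb1*, an arrestin that silences active receptors, at 373 to 409 CPM in KO against 363 to 404 CPM in WT.

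For each receptor, the genes whose levels followed it most closely over the 6 libraries were taken by Pearson's r of log2(CPM + 0.5) among 15252 genes of at least 1 CPM. The 6 points are the same libraries for every gene, with the tissue make-up given above, and with 6 points high values of r arise easily, so these are given as a description. *Htr2a* was closest to *Tmem160* (r = 0.987), *Htr2c* to *Zfp282* (0.995), *Htr1f* to *Zfp931* (0.997), *Htr1d* to *Zfp326* (0.997), *Htr1b* to *Slc25a16* (0.990) and *Htr1a* to *Tmem196* (0.991). *Htr5a* was closest to *Pik3c3* (0.994), *Htr7* to *Ddost* (0.997) and *Htr3a* to *Hrh2* (0.988), a histamine receptor gene. *Smim15* stood among the 3 closest genes of both *Htr1a* and *Htr1b*. Between 17 and 116 genes had an r over 0.95 with a given receptor among these 9. *Htr4*, below 1 CPM on average, was left out.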

How the data were processed

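Prefrontal cortex RNA of 3 KO and 3 WT samples, grouped by the labels, was analysed. The authors deposited raw counts of fragments per gene, 1 table per sample, with no normalization. Polyadenylated RNA was made into stranded libraries. The submitters' processing notes name FastQC 0.11.8, STAR 2.7.9a and featureCounts 1.6.0, and per the file headers the counting was over exons, reverse-stranded, with GENCODE M31 on GRCm39. The study's methods give an older build and annotation. Fragments with more than 1 place or gene were left uncounted, which can lower counts of genes with close copies.

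Library totals ranged from 11792463 to 14594230, and counting error excludes duplication during amplification. Symbols matched 52073 of 56923 genes. The filter of at least 6 fragments in at least 1 library (19084 genes) and the use of edgeR, voom and limma follow the study's methods. TMM scaling, the adjustment (Benjamini-Hochberg, over every tested gene) and its threshold of 0.05 were chosen here (edgeR 4.0.16, limma 3.58.1, R 4.3.3). DESeq2 1.42.0, edgeR's quasi-likelihood test and other scalings, filters and sample sets were the alternatives. Levels per length divided TMM-scaled CPM by the summed exon length in the files, and log2 differences between genes used a pseudocount of 0.1 fragments. The counting coefficient of variation is that of a Poisson count at the mean number of fragments. Coding lengths came from a GENCODE annotation of the previous build. The scripts were tested on simulated data.

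All 10 receptors and *Pla2g4e* were named. From the 6 lists of genes around the receptors, those with an unadjusted p-value under 0.05 and the 2 of largest mean CPM in each list were named. *Maoa* and single markers were picked after their values were seen. The receptors and the gene lists were chosen with earlier results of these data known.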

Additional observations from a re-analysis of the deposited data

How the results depend on the processing

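*Htr1a*, *Htr1b*, *Htr1d*, *Htr1f*, *Htr4*, *Htr5a* and *Htr7* kept their direction under the 16 alternative fits, but not their size. Leaving out single libraries moved *Htr7* between -0.25 (without WT replicate 3) and -0.0240 (without WT replicate 1). *Htr1a* moved between -0.22 (without KO replicate 2) and -0.0669 (without KO replicate 1). *Htr5a* moved between -0.23 (without WT replicate 1) and -0.11 (without KO replicate 1). The *Htr2a* log2 fold change turned to 0.0104 with library totals alone, 0.0191 with library quality weights and 0.10 without both *Xist*-expressing libraries, and ran from -0.0880 without WT replicate 2 to 0.0702 without WT replicate 1 when single libraries were left out (0.0152 without KO replicate 1). When single libraries were left out, *Htr2c* ran from -0.00734 without WT replicate 2 to 0.47 without KO replicate 3, and *Htr3a* from -0.0149 without WT replicate 3 to 0.0943 without WT replicate 2. No receptor passed the adjusted threshold in any fit.

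The number of receptors with an unadjusted p-value under 0.05 was 1 with edgeR, 1 with DESeq2, 1 with the replicate block and 0 without both *Xist*-expressing libraries, and 0 to 3 when single libraries were left out. Over all genes it was 902 with DESeq2, 696 without both *Xist*-expressing libraries and 782 to 2239 when single libraries were left out. After adjustment 1 gene passed with DESeq2, 24 with sex as a covariate (from *Xist* and Y-linked genes) and 3 without both *Xist*-expressing libraries, and 0 to 1 when single libraries were left out. Of the genes in the 6 lists around the receptors, 3 reached an unadjusted p under 0.05 with library totals alone, 10 with a filter of 1 fragment, 11 with the replicate block, 12 with the sex covariate and 2 without both *Xist*-expressing libraries, and 1 to 12 when single libraries were left out. Where not given by the smaller number of samples or genes, the cause was not tested. Deviations of same-numbered samples correlated by 0.428, 0.110 and -0.03. Differently numbered samples were not compared in this way, so these values cannot decide whether the replicate numbers pair the samples.

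Between neighbours in the order of levels (log2 differences), *Htr5a* over *Htr2c* turned to -0.56 without division by length and -0.20 per coding length, and *Htr1a* over *Htr1b* to -0.0873 per coding length. When single libraries were left out, *Htr1b* over *Htr3a* ran from -0.0661 without WT replicate 3 to 0.11 without KO replicate 1, also turning without KO replicate 2 and WT replicate 1, and *Htr1f* over *Htr7* ran from -0.12 without KO replicate 1 to 0.14 without WT replicate 1, also turning without WT replicate 2. With 6 libraries, 0 neighbour pairs passed the adjusted threshold on any of the 3 length scales or with the other pseudocount. At a smallest p of 0.03125 at least 6 of the 9 pairs would have to reach it for any to pass, and with 5 libraries the smallest exact p is 0.0625, so the 0 is no sign of stability. The shares of *Htr2c*, *Htr3a*, *Htr1f* and *Htr7* on the other scales are given above. The *Htr2a* share was 34.0% without division by length, 31.1% per coding length, chosen after seeing the data, and 30.8% to 31.6% when single libraries were left out.

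Depth limits *Htr1d* and *Htr4*, at 2 to 31 fragments in a library.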
